A study of Mus musculus with 8 samples.

Results

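The mRNAs described here encode the subunits of the mitochondrial respiratory chain that are made from nuclear genes. They were taken by symbol from the annotation of the deposited count tables: Nduf genes of the a, b, c, s and v series for complex I, Sdha to Sdhd for complex II, the Uqcr genes for complex III, Cox4 to Cox8 genes for complex IV and Atp5 genes for complex V, with pseudogenes left out. This gave 84 of the 32285 annotated genes, of which 37 belong to complex I, 4 to complex II, 8 to complex III, 18 to complex IV and 17 to complex V. The rule goes by symbol and uses no expression value. Ndufa4 and Ndufa4l2 were counted with complex I because of their names.

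RNA of single nuclei was counted in whole hearts of 4 wild-type (WT) and 4 Taz-KO mice, all male and 9 weeks old, with 1 library per mouse. Taz encodes tafazzin, the enzyme that remodels cardiolipin, the phospholipid of the inner mitochondrial membrane in which these complexes sit, and its loss is the genetic basis of Barth syndrome. Neither the deleted part of the gene nor a promoter or Cre that restricts the deletion to a cell type is given in the sources used here, and no treatment was applied. Values of single mice are listed below in a fixed order, first WT replicates 4686, 4909, 5355 and 5356, then Taz-KO replicates 4685, 4910, 5300 and 5301.

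The respiratory chain passes electrons from NADH through complex I, or from succinate through complex II, to ubiquinone, and on through complex III and cytochrome c to complex IV, where oxygen is reduced. Complexes I, III and IV pump protons, and complex V, the ATP synthase, uses the returning protons to make ATP. Complexes I, III, IV and V also hold subunits encoded by mitochondrial DNA (mtDNA), whereas complex II is nuclear-encoded throughout. Heart muscle depends on this chain more than most tissues and uses muscle-type isoforms of several complex IV subunits.

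The 8 libraries held between 20025456 and 348080773 counted molecules (unique molecular identifiers, UMIs) each, and no pair of libraries shared more than 1.05% of the barcodes of the smaller one. Taz-KO replicates 4685 and 5301 were the smallest, with 3492 and 5571 barcodes against 21190 to 36308 in the other libraries. Clustering left 29481 cardiomyocytes, 36962 fibroblasts, 21751 endothelial nuclei and 12108 macrophages. They were named from marker genes such as Ryr2 and Ttn, Pdgfra and Bicc1, Ptprb and Flt1, and F13a1 and Mrc1. A further 50962 nuclei (33.7%) lay in none of these classes. These made up 68.6% of the nuclei of Taz-KO replicate 4685 and 28.7% to 38.2% of those of the other libraries. Of the 958 cardiomyocytes of Taz-KO replicate 5301, 652 kept this class with clusters at resolution 0.5. The share of all UMIs that came from mtDNA-encoded genes, called the mt- share below, was 11.4%, 23.7%, 13.2% and 9.53% in the WT libraries and 7.01%, 20.5%, 13.5% and 1.57% in the Taz-KO libraries. Taz itself stood at 53.1, 49.5, 54.6 and 48.7 CPM (counts scaled to the same total of nuclear-gene UMIs in every mouse and class) in WT cardiomyocytes and at 43.6, 37.7, 28.3 and 31.5 CPM in Taz-KO cardiomyocytes. Every Taz-KO mouse was thus below every WT mouse, and the gene was lower by edgeR's quasi-likelihood test, with a log2 fold change of -0.67 ± 0.18 (SE) and a Benjamini-Hochberg adjusted p of 0.0258. In fibroblasts, endothelial nuclei and macrophages the Taz-KO mice were also all below the WT mice, with log2 fold changes of -0.57, -1.09 and -0.92 that did not pass the adjusted threshold of 0.05 (adjusted p = 0.296, 0.0837 and 0.189). Taz counts did not reach 0 in any Taz-KO library, so the counts separate the genotypes by level and not by absence. The genotype p-values below compare 4 mice with 4 mice.

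The level of the subunit mRNAs differed more between libraries than between genotypes. Summed over all members, cardiomyocytes held 11566, 15440, 15329 and 4762 CPM in the WT mice and 9734, 10687, 12215 and 4369 CPM in the Taz-KO mice. WT replicate 5356 and Taz-KO replicate 5301 were far below the other mice, and the groups overlapped. The means were 11774 ± 5010 CPM in WT and 9251 ± 3412 CPM in Taz-KO (SD, n = 4 each), a ratio of 0.786. Each of the 5 complexes had a lower mean in Taz-KO with overlapping groups, with Taz-KO to WT ratios of 0.772 for complex I, 0.835 for complex II, 0.792 for complex III, 0.804 for complex IV and 0.776 for complex V. Complex II varied least, from 434 to 691 CPM across the 8 mice, whereas complex III ranged from 393 to 1546 CPM. The same 2 libraries were lowest in fibroblasts, endothelial nuclei and macrophages as well. There the summed level was 17892 ± 9587, 21700 ± 10949 and 20737 ± 10357 CPM in WT and 13920 ± 8518, 19262 ± 10510 and 19898 ± 11675 CPM in Taz-KO (SD, n = 4 each).

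**Figure D1:**
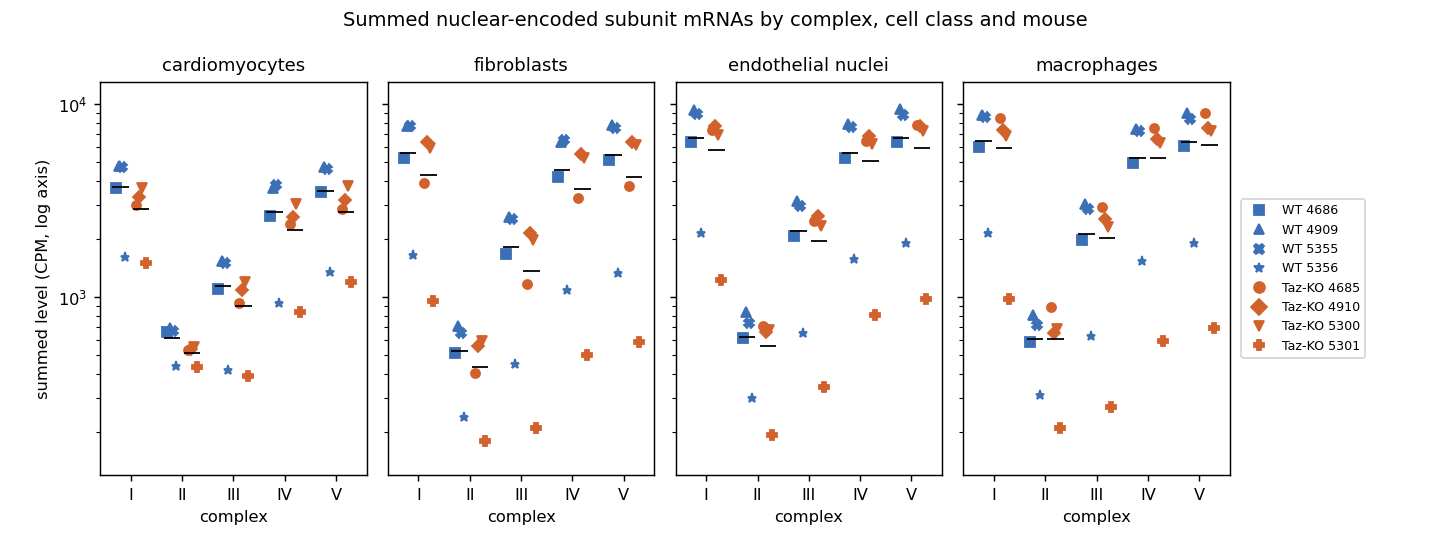
Summed CPM of the nuclear-encoded subunit mRNAs of complexes I to V (x axis) in each mouse on a log axis, 1 panel per cell class, with WT mice in blue and Taz-KO mice in orange. WT replicate 5356 and Taz-KO replicate 5301 lie below the other 6 mice in most columns, and complex II in cardiomyocytes spans the narrowest range, 434 to 691 CPM.

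Cardiomyocytes, the cells with the most mitochondria in the heart, did not hold the highest share of subunit mRNA among their nuclear UMIs. The summed level in cardiomyocytes was lower than in endothelial nuclei and in macrophages of the same library in 7 of 8 mice and lower than in fibroblasts in 6 of 8, with median ratios of 0.526, 0.542 and 0.653. Taz-KO replicate 5301 was higher in cardiomyocytes in each comparison, and WT replicate 5356 was level with its fibroblasts. Complex II had a median ratio to fibroblasts of 1.16, with a higher level in cardiomyocytes in 5 of 8 mice, and median ratios to endothelial nuclei and macrophages of 0.873 and 0.895, with a higher level in 3 of 8 mice each. Of the 84 genes, Ndufs1, Ndufs4, Sdhc and Cox7b2 were higher in cardiomyocytes than in fibroblasts in every mouse, and 12 were lower in every mouse. Against endothelial nuclei only Ndufs4 and Cox7b2 were higher in every mouse and 35 were lower, and against macrophages only Ndufs4 was higher and 20 were lower. Messenger RNA of cardiomyocyte proteins was found in all classes. Summed over 10 such genes, among them Myh6, Tnnt2, Mb and Ckm, it amounted to 15323 to 23335 CPM in cardiomyocytes of 7 mice and 12380 CPM in Taz-KO replicate 4685, and to 1393 to 23250 CPM in fibroblasts, 2649 to 28741 CPM in endothelial nuclei and 1961 to 27248 CPM in macrophages. Within a library it was higher in cardiomyocytes than in fibroblasts in 8 of 8 mice, with a median ratio of 1.44, but than in endothelial nuclei and macrophages in 4 of 8 mice each, with median ratios of 1.03 and 1.06. The counts were not corrected for free RNA, so the levels in the other 3 classes include RNA of cardiomyocytes to an extent that was not tested.

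The genotype comparison in cardiomyocytes asks which subunit mRNAs differ when tafazzin is lost. Of the 84 members, 83 had enough counts to be tested, and Cox8c had no UMI in cardiomyocytes of any mouse. Cox7b2 and Sdhc were lower in Taz-KO by edgeR at an adjusted p below 0.05 and none was higher, so 2 of 83 members were called, against 6.54% of all genes called lower and 8.73% called higher. The fitted difference was negative for 81 of 83 members with a median of -0.49 (log2), whereas 51.1% of all genes were negative and their median was -0.01. An unadjusted p under 0.05 was reached by 8 of 83 members, against 28.5% of all genes. Without WT replicate 5356 the test called 11 members lower against 5.11% of all genes, and without any other single mouse it called Cox7b2 alone, against 4.47% to 6.11% of all genes. Subunits of one chain share libraries and cells, so the common sign is a description of these 8 mice. Groups without overlap were seen for Ndufs4, Sdhc and Cox7b2, which is 3 of 83 members against 7.02% of all genes lower in every Taz-KO mouse.

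**Figure D2:**
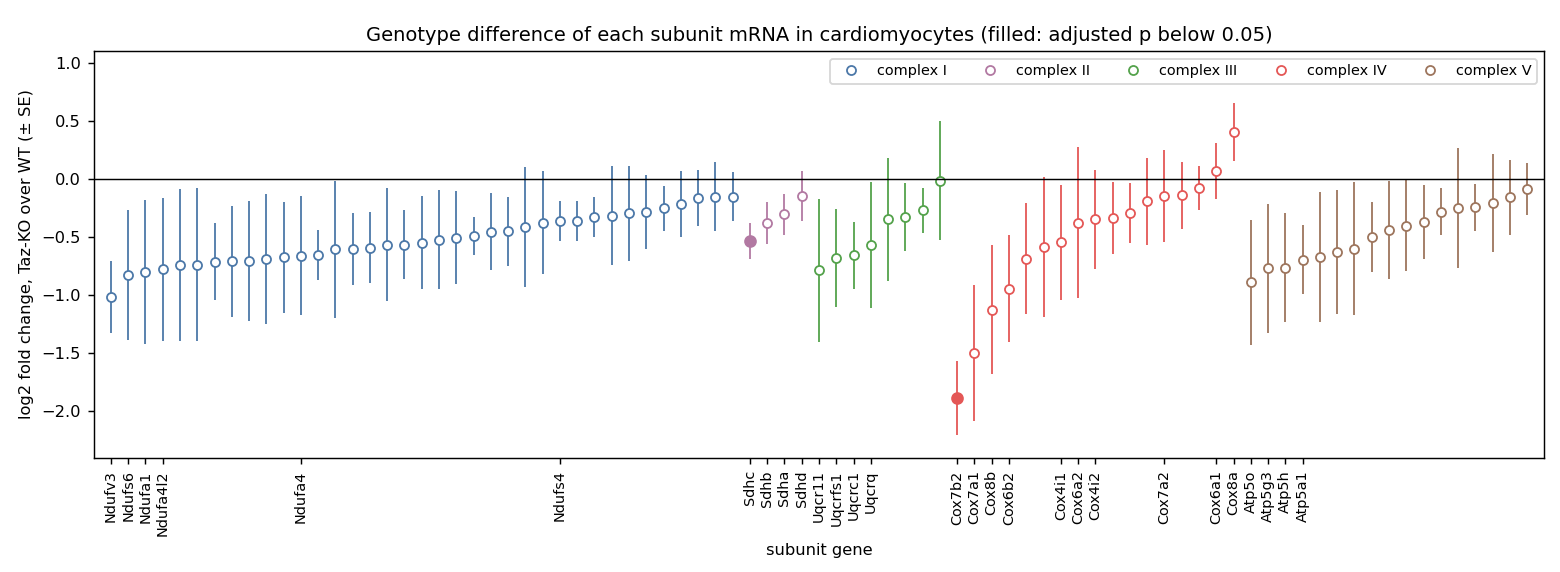
Log2 fold change of Taz-KO against WT (y axis, ± SE derived from the edgeR F statistic) for the 83 tested subunit genes in cardiomyocytes. Genes are ordered by complex and value (x axis, some named) and coloured by complex, with filled points at an adjusted p below 0.05. Cox7b2 and Sdhc are the filled points, 81 of the 83 values lie below 0, and Cox8a and Cox6a1 lie above it.

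Complex I, which takes electrons from NADH, had all 37 members on the negative side with a median of -0.55. None was called by the main edgeR test. DESeq2 called Ndufs1, Ndufa9 and Ndufv3, which is 3 of 37 members against 5.74% of all genes called lower. With edgeR, Ndufv3 was also called with RLE size factors, with clusters at resolution 0.5, where Ndufa9 was called too, and in nuclei with at most 5% mt- UMIs. The largest difference was that of Ndufv3, a small accessory subunit of the NADH-binding flavoprotein part. It measured 80.9, 123, 130 and 42.3 CPM in WT and 56.1, 58.6, 62.5 and 24.6 CPM in Taz-KO. WT replicate 5356 lay below 3 Taz-KO mice, so the groups overlapped, and the log2 fold change of -1.01 ± 0.31 (SE) had an adjusted p of 0.0512. Ndufs6, an accessory subunit that binds zinc, followed with -0.82 ± 0.56, Ndufa1, a small membrane subunit encoded on the X chromosome, with -0.80 ± 0.62, and Ndufa4l2, a paralog of Ndufa4, with -0.78 ± 0.61, and none of these was near the threshold (adjusted p = 0.394, 0.464 and 0.472). When 1 mouse was left out these 3 ran from -1.14 to -0.51, -1.12 to -0.47 and -1.06 to -0.44. Ndufs4, an accessory subunit needed for a stable complex and named here after its values were seen, was steadier than its neighbours at 297, 282, 270 and 252 CPM in WT and 237, 240, 213 and 233 CPM in Taz-KO. All Taz-KO mice were below all WT mice, and the difference of -0.36 ± 0.17 had an adjusted p of 0.194.

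Complex II, which passes electrons from succinate, held 1 of the 2 called members. Sdhc, a membrane anchor of the complex (mm10, chr1:171127165-171150603, minus strand), measured 175, 177, 179 and 134 CPM in WT and 133, 133, 118 and 112 CPM in Taz-KO. The lowest WT mouse, replicate 5356, was just above the highest Taz-KO mouse. The gene was lower in Taz-KO by a log2 fold change of -0.53 ± 0.16 (SE, adjusted p = 0.0398 by edgeR). This call was kept in 8 of 20 alternative analyses, in which its adjusted p ran from 0.00735 to 0.116 and its fold change stayed between -0.60 and -0.45, and it was lost when any 1 mouse other than WT replicate 5356 was left out. The 8 include the ribosomal protein covariate and the fit without both WT replicate 5356 and Taz-KO replicate 5301. Both were added after the data were seen and are no separate support. The flavoprotein Sdha stood at 271, 290, 257 and 172 CPM in WT and 192, 234, 251 and 190 CPM in Taz-KO, with a difference of -0.30 ± 0.18 (adjusted p = 0.301). The iron-sulfur subunit Sdhb and the second anchor Sdhd differed by -0.38 ± 0.18 and -0.15 ± 0.21 (adjusted p = 0.192 and 0.723), and their groups overlapped. The values of Sdha, Sdhb and Sdhd with 1 mouse left out ran from -0.41 to -0.22, -0.51 to -0.31 and -0.29 to -0.02.

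Complex III, the cytochrome bc1 complex, had all 8 members on the negative side with a median of -0.46. The largest difference, that of the small subunit Uqcr11, rested on 140, 248, 217 and 39.8 CPM in WT and 100.4, 137, 155 and 16.9 CPM in Taz-KO and came to -0.79 ± 0.62 (SE, adjusted p = 0.472). The Rieske iron-sulfur protein Uqcrfs1 differed by -0.68 ± 0.42, the core protein Uqcrc1 by -0.66 ± 0.29 and the ubiquinone-binding subunit Uqcrq by -0.57 ± 0.54, with adjusted p of 0.348, 0.159 and 0.569. In each of them WT replicate 5356 lay among the Taz-KO values. With 1 mouse left out Uqcr11 ran from -1.10 to -0.45, Uqcrfs1 from -0.95 to -0.43, Uqcrc1 from -0.90 to -0.52 and Uqcrq from -0.89 to -0.28.

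Complex V, the ATP synthase, had all 17 members on the negative side with a median of -0.44. None was called by the main edgeR test. Atp5o, which encodes the stalk protein that confers sensitivity to oligomycin, measured 202, 285, 298 and 42.7 CPM in WT and 129, 153, 165 and 38.2 CPM in Taz-KO. The 3 higher WT mice were above all Taz-KO mice, WT replicate 5356 was among the lowest, and the difference was -0.89 ± 0.54 (SE, adjusted p = 0.335). Atp5g3, one of the genes for the membrane ring, Atp5h, a stalk subunit, and Atp5a1, the alpha subunit of the catalytic head, differed by -0.77 ± 0.56, -0.76 ± 0.47 and -0.70 ± 0.30 (adjusted p = 0.428, 0.341 and 0.15). On leaving out 1 mouse Atp5o ran from -1.22 to -0.62 and Atp5g3, Atp5h and Atp5a1 from -1.06 to -0.45, -1.06 to -0.50 and -0.93 to -0.53.

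Complex IV, cytochrome c oxidase, was the one complex with members on both sides, 15 of 17 negative and a median of -0.35. Cox7b2, an isoform of the subunit Cox7b (mm10, chr5:71442824-71548205, minus strand), had the largest difference of all members. It was a rare transcript, at 4.75, 5.78, 6.61 and 8.04 CPM in WT and 3.36, 1.35, 2.24 and 1.22 CPM in Taz-KO cardiomyocytes, with at least 11 UMIs in every mouse. All Taz-KO mice were below all WT mice, and WT replicate 5356, the WT mouse with the lowest summed level, was the highest of the 8 for this gene. The log2 fold change was -1.89 ± 0.32 (SE, adjusted p = 0.00261 by edgeR), and the call was kept in 19 of 20 alternative analyses. It was lost only under the stricter thresholds of the study, applied here to edgeR on sums per mouse. The 19 include the alternatives added after the data were seen, which are no separate support. In endothelial nuclei Cox7b2 measured 1.25, 1.29, 1.05 and 1.51 CPM in WT and 0.605, 0.426, 0.624 and 0 CPM in Taz-KO, a difference of -1.43 ± 0.36 with an adjusted p of 0.185. The smallest p of the test for a different genotype effect in cardiomyocytes and fibroblasts was also that of Cox7b2, whose effect was lower by 1.35 ± 0.41 (log2, SE) in cardiomyocytes, with an adjusted p of 0.112. Cox6b2, known mainly as a testis isoform, stood at or below 1.22 CPM in every mouse and differed by -0.94 ± 0.46 (adjusted p = 0.209). Of the paralogs, Cox4i1 stood at 114 to 609 CPM in WT and 95.7 to 442 CPM in Taz-KO cardiomyocytes and Cox4i2 at 1.74 to 6.62 and 1.11 to 5.53 CPM, with differences of -0.54 ± 0.50 and -0.35 ± 0.43. After leaving out 1 mouse these ran from -0.84 to -0.27 and -0.59 to -0.10, and that of Cox6b2 from -1.42 to -0.74.

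Complex IV has muscle-type and ubiquitous isoforms of the same subunit. No single gene of the Cox6a, Cox7a and Cox8 pairs was called between genotypes in cardiomyocytes of all 8 mice by the main edgeR test. Cox7a1 was called as lower by DESeq2 and, with edgeR, without WT replicate 5356. Alternatives added after the data were seen, described further on, called Cox7a1, Cox8b and Cox6a2 as lower. The muscle-type Cox7a1 measured 183, 259, 333 and 48.2 CPM in WT and 86.5, 102, 112 and 17.9 CPM in Taz-KO cardiomyocytes, a log2 difference of -1.50 ± 0.58 (SE, adjusted p = 0.126). The ubiquitous Cox7a2 measured 126, 164, 164 and 48 CPM in WT and 123, 158, 170 and 44.3 CPM in Taz-KO, a difference of -0.15 ± 0.40 (adjusted p = 0.863). With 1 mouse left out Cox7a2 ran from -0.40 to 0.10 and thus kept neither its size nor its sign, while Cox7a1 ran from -1.82 to -1.19 and was highest in 3 WT mice. Cox8b, again the muscle-type form, measured 168, 255, 298 and 44.3 CPM in WT and 99.3, 116, 143 and 25.3 CPM in Taz-KO (-1.12 ± 0.56, adjusted p = 0.229). Its ubiquitous counterpart Cox8a measured 65.8, 84.0, 75.8 and 34.4 CPM in WT and 113, 98.3, 117 and 48.6 CPM in Taz-KO (0.40 ± 0.25, adjusted p = 0.337). With 1 mouse left out Cox8b ran from -1.44 to -0.83 and Cox8a from 0.22 to 0.58. For Cox8a the 3 higher Taz-KO mice were above all WT mice, the opposite order to Cox8b.

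Because both genes of a pair are counted in the same nuclei, their ratio cancels what changes both alike. The Cox7a1 to Cox7a2 ratio in cardiomyocytes was 1.45, 1.58, 2.03 and 1.00 in WT and 0.705, 0.646, 0.655 and 0.405 in Taz-KO. The Cox8b to Cox8a ratio was 2.56, 3.04, 3.93 and 1.29 in WT and 0.879, 1.18, 1.23 and 0.519 in Taz-KO. Neither pair overlapped between genotypes, and the geometric mean ratios were 2.50 times and 2.77 times as high in WT, which is a log2 difference of -1.32 and -1.47. A two-sided exact permutation test gave p = 0.0286 for each, the smallest value that 4 against 4 mice allow, and 0.05 after Benjamini-Hochberg adjustment over the 14 ratios tested, which is not below the threshold of 0.05. Cox6a2 to Cox6a1, the third pair of this kind, ran at 4.93, 9.30, 9.94 and 2.46 in WT and 5.50, 6.66, 5.37 and 1.67 in Taz-KO. These groups overlapped (log2 difference -0.44, exact permutation p = 0.514), so a genotype difference of this pair was not shown in cardiomyocytes. The ratio of Cox4i2 to Cox4i1 differed by 0.13 (log2, exact permutation p = 0.543), and Ndufa4l2 to Ndufa4 had too few UMIs in cardiomyocytes.

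The same 2 ratios were lower in Taz-KO in the other 3 classes. The Cox7a1 to Cox7a2 ratio differed by a log2 of -1.22 in fibroblasts, -1.58 in endothelial nuclei and -1.35 in macrophages, and the Cox8b to Cox8a ratio by -1.96, -1.64 and -1.69. No group overlapped in these 6 comparisons and each had an exact permutation p of 0.0286. After adjustment over the 14 ratios tested each p was 0.05, which is not below the threshold of 0.05. The classes come from the same libraries, so these comparisons are not independent of each other or of the cardiomyocytes. Cox6a2 to Cox6a1 differed by -0.82, -0.68 and -0.66 in the same classes with overlapping groups, which no longer overlapped once WT replicate 5356 was left out. The 10% of barcodes with the fewest UMIs in each library, which held at most 616 UMIs in Taz-KO replicate 5301 and at most 7021 in WT replicate 4909, gave a Cox7a1 to Cox7a2 ratio of 1.72, 1.71, 2.16 and 1.27 in WT and 0.587, 0.689, 0.684 and 0.528 in Taz-KO. In most mice these Cox7a1 to Cox7a2 values lie close to those of the named classes. In every library but Taz-KO replicate 5301, most of these barcodes passed the limits on UMIs and genes. Apart from those removed as doublets, they were thus themselves among the clustered nuclei. Closeness to the classes is therefore partly built in, and these barcodes are no separate profile of free RNA. The Cox8b to Cox8a ratio of these barcodes was 4.71, 4.11, 5.81 and 2.66 in WT and 1.00, 1.46, 1.27 and 0.75 in Taz-KO. Both this ratio and Cox6a2 to Cox6a1 were higher in these barcodes than in cardiomyocytes in every mouse. The part of free cardiomyocyte RNA in the ratios of the other classes was not tested. The Cox6a2 to Cox6a1 ratio was lower in cardiomyocytes than in fibroblasts, endothelial nuclei and macrophages of the same mouse in 8 of 8 mice, by a mean log2 of -0.49, -0.67 and -0.74 (two-sided exact permutation p = 0.00781 each, the smallest that 8 mice allow, 0.0117 after adjustment over 9 tests). The Cox8b to Cox8a ratio was also lower in cardiomyocytes than in endothelial nuclei and macrophages in 8 of 8 mice (mean log2 -0.38 and -0.52, adjusted exact permutation p = 0.0117). Its difference from fibroblasts was negative in 6 of 8 mice (mean log2 -0.19, exact permutation p = 0.156). The Cox7a1 to Cox7a2 ratio was lower in cardiomyocytes than in macrophages in 8 of 8 mice (mean log2 -0.16, adjusted exact permutation p = 0.0117). Against fibroblasts and endothelial nuclei it was lower in 6 of 8 mice each, with a mean log2 of -0.11 and 0.02 (exact permutation p = 0.0938 and 0.875).

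**Figure D3:**
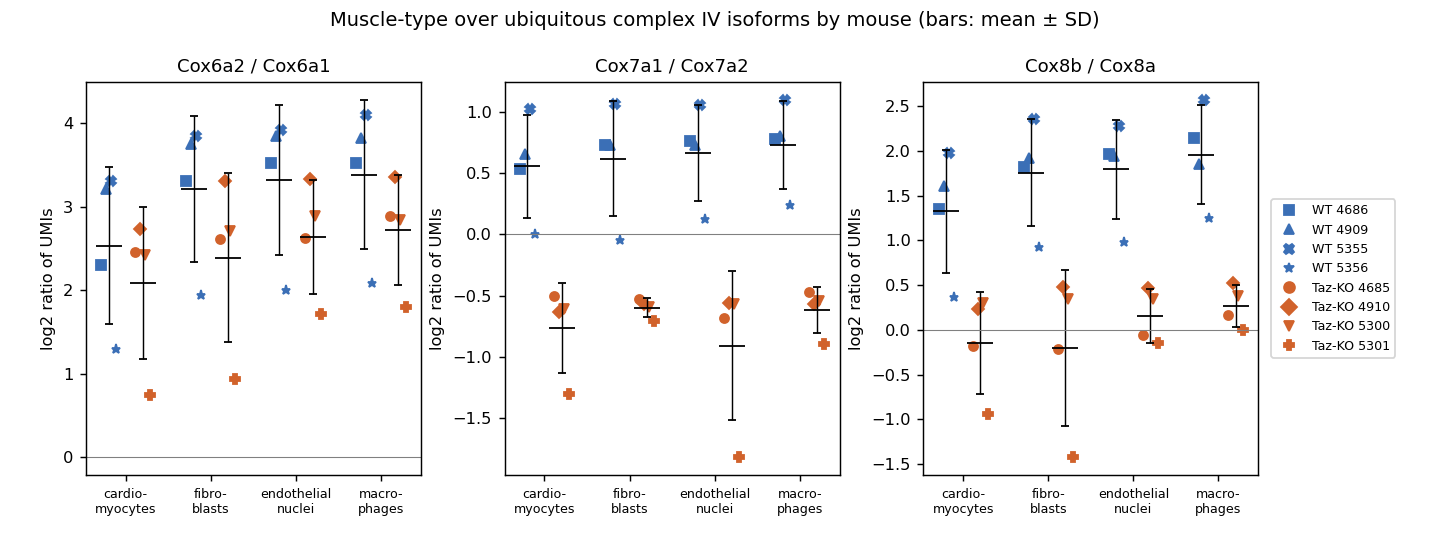
Log2 ratio of UMIs of the muscle-type over the ubiquitous isoform (y axis) in each mouse, by cell class (x axis), for Cox6a2 over Cox6a1, Cox7a1 over Cox7a2 and Cox8b over Cox8a, with horizontal bars at the mean and whiskers at ± SD of 4 mice. For Cox7a1 and Cox8b the orange Taz-KO points lie below all blue WT points in every class, whereas for Cox6a2 the groups overlap.

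The promoters of these 4 isoform genes and of Atp5g3 are shown because the isoforms of a pair had unequal genotype values and because Atp5g3 was among the 5 members with the smallest p in the relation to the mt- share given further on. The sequences are the 250 bases before the gene start, from RefSeq on GRCm38.p6, and 67 of the 84 members had an entry. Capitals mark a motif found on either strand. Cox7a1 (chr7:30183921-30184170, plus strand) and Cox8a (chr19:7217617-7217866, minus strand) held none of the motifs searched. Cox7a2 (chr9:79759854-79760103, minus strand) held a GC box, GGGCGG, that began at position -44. Cox8b (chr7:140900447-140900696, minus strand) held the E-box CAGCTG from position -19, and Atp5g3 (chr2:73911327-73911576, minus strand) held the motif of estrogen-related receptors, TNAAGGTCA, on the opposite strand from position -52.
Cox7a1: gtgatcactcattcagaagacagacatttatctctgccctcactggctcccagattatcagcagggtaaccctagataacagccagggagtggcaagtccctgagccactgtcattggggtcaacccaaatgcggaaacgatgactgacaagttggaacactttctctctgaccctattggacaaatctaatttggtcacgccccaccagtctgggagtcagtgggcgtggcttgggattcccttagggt
Cox7a2: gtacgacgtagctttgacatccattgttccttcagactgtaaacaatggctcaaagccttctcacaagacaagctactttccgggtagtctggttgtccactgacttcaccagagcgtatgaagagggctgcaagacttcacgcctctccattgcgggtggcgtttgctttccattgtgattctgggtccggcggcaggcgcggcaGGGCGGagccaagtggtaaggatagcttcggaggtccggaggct
Cox8b: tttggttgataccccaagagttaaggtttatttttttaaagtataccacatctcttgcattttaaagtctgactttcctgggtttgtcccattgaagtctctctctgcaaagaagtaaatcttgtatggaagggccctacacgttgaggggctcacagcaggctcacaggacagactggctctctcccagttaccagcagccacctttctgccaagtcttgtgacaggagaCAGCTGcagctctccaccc
Cox8a: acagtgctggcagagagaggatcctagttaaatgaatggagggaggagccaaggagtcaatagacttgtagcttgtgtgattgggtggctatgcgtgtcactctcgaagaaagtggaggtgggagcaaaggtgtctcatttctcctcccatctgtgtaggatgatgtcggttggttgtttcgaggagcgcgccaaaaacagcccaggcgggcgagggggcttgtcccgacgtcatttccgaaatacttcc
Atp5g3: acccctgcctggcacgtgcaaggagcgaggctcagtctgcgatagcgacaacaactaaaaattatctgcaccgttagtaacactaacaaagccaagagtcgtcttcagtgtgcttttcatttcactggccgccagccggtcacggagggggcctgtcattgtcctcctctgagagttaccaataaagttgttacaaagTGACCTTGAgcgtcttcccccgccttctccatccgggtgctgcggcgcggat

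Over the members with an entry, the letters of the NRF1 motif (GCGCA, any base, then GCGC) were found in the window of 13 genes, or 19.4%, against 4.23% of the 27025 genes in the table. NRF1 is a factor known for its sites in respiratory chain genes, and the 13 genes included Sdha, Sdhd, Ndufs6, Cox6a1 and Atp5h. The GABP motif CCGGAAG was found in 12 members, 17.9% against 7.83%, among them Uqcr11, Uqcrh, Sdhd and Cox6b1. The YY1 motif AANATGGCG occurred in 3 members and the motif of estrogen-related receptors in 2, Atp5g3 and Ndufb4, which is 4.48% against 1.29% and 2.99% against 1.30%. The GC box occurred in 35.8% against 35.4% and the CAGCTG E-box in 8.96% against 14.7%. The MEF2 motif was in no window of the members and in 3.42% of all genes. Both strands were searched, NRF1, GABP and the GC box can overlap in GC-rich windows, and a match describes letters and not binding.

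In the other 3 classes no member was called between genotypes by the main edgeR test. Alternatives added after the data were seen did call members there and are given further on. The background of called genes was 0.328% in fibroblasts, 0.438% in endothelial nuclei and 0.256% in macrophages. An unadjusted p under 0.05 was reached by 0 of 83, 1 of 83 and 0 of 82 members, against 9.52%, 8.19% and 5.73% of all genes, and DESeq2 called none either. The median difference was -0.40 in fibroblasts, with 77 of 83 negative, -0.21 in endothelial nuclei with 69 of 83, and -0.09 in macrophages with 52 of 82. Groups without overlap were limited to Cox7b2 in endothelial nuclei, against 1.66%, 1.77% and 1.73% of all genes lower in every Taz-KO mouse in fibroblasts, endothelial nuclei and macrophages.

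Ndufv3 had the largest difference of complex I in each of these classes. In fibroblasts it measured 136, 216, 223 and 46.0 CPM in WT and 95.1, 130, 110.4 and 27.5 CPM in Taz-KO, a difference of -0.85 ± 0.54 (SE, adjusted p = 0.742), and the differences were -0.66 ± 0.57 in endothelial nuclei and -0.67 ± 0.59 in macrophages. Cox7a1 in fibroblasts measured 326, 463, 565 and 50.7 CPM in WT and 131, 226, 209 and 15.9 CPM in Taz-KO (-1.36 ± 0.80, adjusted p = 0.709). In both genes 3 WT mice were above all Taz-KO mice and WT replicate 5356 was among or below them. The largest differences of the remaining complexes were those of Sdhc at -0.47, Uqcrc1 at -0.81 and Atp5o at -0.79 in fibroblasts, Sdhc at -0.32, Uqcrfs1 at -0.63 and Atp5h at -0.53 in endothelial nuclei, and Sdhc at -0.21, Uqcrfs1 at -0.39 and Atp5h at -0.40 in macrophages, all with overlap. With 1 mouse left out, Sdhc, Uqcrc1 and Atp5o ran from -0.69 to -0.23, -1.21 to -0.48 and -1.17 to -0.42 in fibroblasts. Sdhc, Uqcrfs1 and Atp5h ran from -0.51 to -0.06, -0.93 to -0.28 and -0.86 to -0.17 in endothelial nuclei and from -0.40 to 0.03, -0.70 to -0.02 and -0.73 to -0.04 in macrophages, so Sdhc in macrophages did not keep its sign.

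Whether the genotype difference was larger in cardiomyocytes was tested as an interaction of class and genotype. No member was called against fibroblasts, endothelial nuclei or macrophages, where 4.13%, 2.23% and 0.972% of all genes were. The median difference of the effects was -0.05, -0.14 and -0.25 (log2) for the members and -0.10, -0.01 and -0.09 for all genes. An unadjusted p under 0.05 was reached by 2, 1 and 0 members, against 17.3%, 14.1% and 12.4% of all genes, and DESeq2 called none. Cardiomyocyte mRNAs were counted in the other classes too. Their median ratio of cardiomyocytes to fibroblasts, endothelial nuclei and macrophages was 1.44, 1.03 and 1.06. Without a correction for free RNA, the lack of calls cannot tell a difference shared by the classes from cardiomyocyte RNA counted in them.

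The other genes of the pathway did not all share the negative side. Of 48 assembly factors, which build the complexes without remaining in them, 47 were tested in cardiomyocytes, with a median difference of 0.01. Cox19, a copper-related assembly factor of complex IV, was higher in Taz-KO by 0.80 ± 0.13 (log2, SE, adjusted p = 0.00231 by edgeR). Ndufaf4, an assembly factor of complex I, was higher by 0.73 ± 0.19 (adjusted p = 0.0265), and none was lower. No other of the 47 factors was called, whereas 8.73% of all genes were called higher and 6.54% lower. Of 17 genes of electron carriers and their synthesis, 4 were lower and 1 was higher, against 6.54% and 8.73% of all genes. The lower genes were Coq8a (-0.96 ± 0.21, adjusted p = 0.011) and Coq10a (-0.57 ± 0.15, adjusted p = 0.0245), which act in ubiquinone biosynthesis and function, and Etfdh (-0.99 ± 0.25, adjusted p = 0.0219) and Etfa (-0.66 ± 0.17, adjusted p = 0.0248), which carry electrons from fatty acid oxidation to ubiquinone. Coq8b, the paralog of Coq8a, was higher by 0.71 ± 0.18 (adjusted p = 0.0208). The interaction test called Taco1, which promotes translation of an mtDNA-encoded complex IV subunit, with a genotype effect higher in cardiomyocytes by 1.14 against fibroblasts, 1.18 against endothelial nuclei and 1.05 against macrophages (adjusted p = 0.00958, 0.00615 and 0.0472). Taco1 is also among the 10 leading genes of the cardiomyocyte cluster described below that was largest in Taz-KO replicates 4685 and 5301, and the part of that cluster in its value was not tested. The test also called Coq8b against fibroblasts (0.80, adjusted p = 0.0294) and endothelial nuclei (0.87, adjusted p = 0.0396). None of the genes of these lists was called between genotypes in fibroblasts, endothelial nuclei or macrophages by the main edgeR test.

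The mt- share of a library measures RNA that lies outside the nucleus, so the members were compared with it across the 8 mice. The summed level in cardiomyocytes had a Pearson r of 0.764 and a Spearman rho of 0.810 with the mt- share of the library. In fibroblasts they were 0.871 and 0.905, in endothelial nuclei 0.825 and 0.762, and in macrophages 0.819 and 0.571. Without Taz-KO replicate 5301 and WT replicate 4909, the mice farthest from the median share, r was 0.386, 0.566, 0.327 and 0.219 and rho was 0.543, 0.771, 0.429 and -0.029. The size of r thus rests in large part on those 2 libraries in every class, while rho moved least in fibroblasts. The points share the libraries from which both values come, and no p is given. The summed members of fibroblasts, endothelial nuclei and macrophages had an r of 0.985, 0.983 and 0.984 and a rho of 0.929, 0.833 and 0.905 with the cardiomyocyte mRNAs counted in the same nuclei, and the cardiomyocytes had 0.603 and 0.857. Without the 2 mice farthest from the median level of these mRNAs r was 0.947, 0.764 and 0.632, and 0.843 in cardiomyocytes, so the higher r of endothelial nuclei and macrophages rests on those 2 mice.

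**Figure D4:**
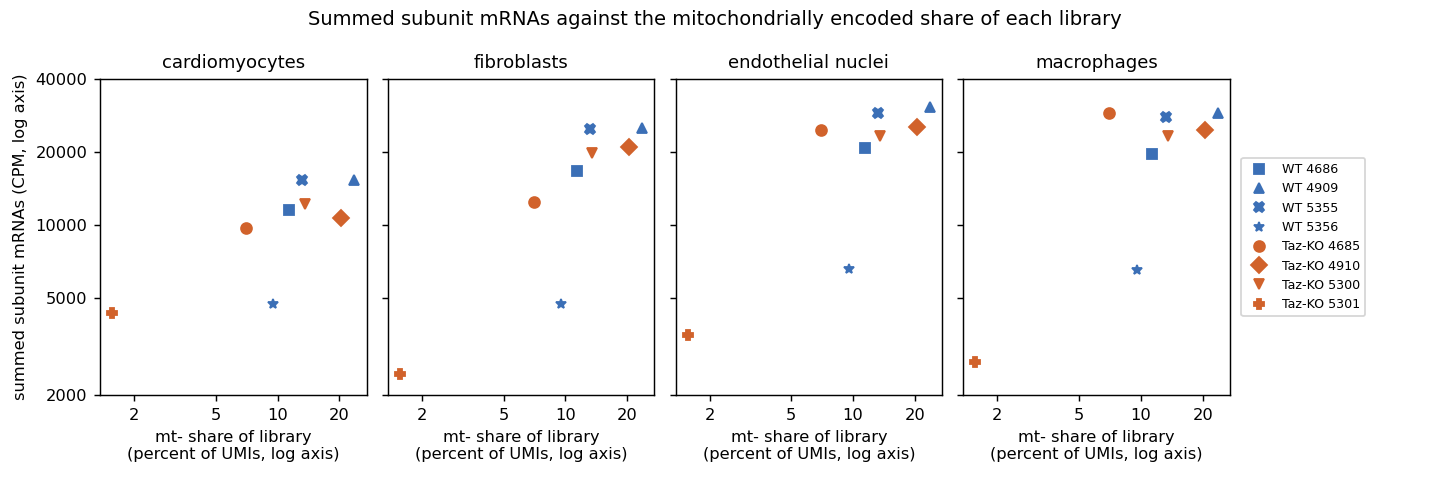
Summed CPM of all members (y axis, log) against the mt- share of the library in percent (x axis, log) for each mouse, 1 panel per cell class, WT in blue and Taz-KO in orange. Taz-KO replicate 5301 at 1.57% is the lowest point of each panel, and WT replicate 5356 lies below the other libraries of similar share.

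Gene by gene, the slope per doubling of the mt- share, with genotype in the model, was positive for 80 of 83 members in cardiomyocytes with a median of 0.43. None was called by edgeR (0% of all genes, smallest adjusted p of a member 0.182), although 62 had an unadjusted p under 0.05, against 15.1% of all genes. In fibroblasts 61 of 83 members had a positive slope at an adjusted p below 0.05, against 3.65% of all genes, and the median slope was 0.96. By complex these were 24 of 37, 2 of 4, 8 of 8, 13 of 17 and 14 of 17 members of complexes I to V. Members with a small p included Atp5g3 with 1.25 ± 0.22 (log2 per doubling, SE), Uqcr11 with 1.12 ± 0.20, the hinge protein Uqcrh with 0.96 ± 0.18 and Cox5a with 1.00 ± 0.18. In fibroblasts Atp5g3 measured 396, 705, 627 and 125 CPM in WT and 274, 466, 485 and 22.7 CPM in Taz-KO. Its 2 lowest values were again those of Taz-KO replicate 5301 and WT replicate 5356. The count of 61 was not stable. It was 1 without Taz-KO replicate 4685, 0 without WT replicate 4686, WT replicate 4909, Taz-KO replicate 5300 or Taz-KO replicate 5301, 8 without Taz-KO replicate 4910, 74 without WT replicate 5355 and 78 without WT replicate 5356, and it was 0 with the mt- share of the fibroblasts in place of that of the library. The share of all genes with a called positive slope was 0.733% without Taz-KO replicate 4685, 0.328% or less without WT replicate 4686, WT replicate 4909, Taz-KO replicate 5300 or Taz-KO replicate 5301, and 2.22%, 4.44% and 7.02% without Taz-KO replicate 4910, WT replicate 5355 or WT replicate 5356. It was 0.375% with the mt- share of the fibroblasts.

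In endothelial nuclei all 83 and in macrophages 81 of 82 slopes were positive, with medians of 0.84 and 0.92. None was called (0% of all genes in both), with 81 and 76 members at an unadjusted p under 0.05, against 16.6% and 15% of all genes, and smallest adjusted p of 0.214 and 0.311. Without Taz-KO replicate 4685 the called members were 55 of 83 and 76 of 82, against 3.70% and 9.02% of all genes with a called positive slope. Complex II had the flattest slopes, with a median of 0.04 in cardiomyocytes, 0.55 in fibroblasts, 0.55 in endothelial nuclei and 0.49 in macrophages. Of the assembly factors 6 of 47 had a called positive slope in fibroblasts, and of the carrier genes 4 of 17, against the 3.65% of all genes. These calls share the instability given above, since all genes with a called positive slope numbered 3, 1 and 0 without WT replicate 4909, Taz-KO replicate 5300 or Taz-KO replicate 5301. With the mt- share as a covariate of the genotype test, the median genotype difference of the members was -0.20 in cardiomyocytes, where Cox7b2 alone was called, and 0.04, 0.26 and 0.42 in fibroblasts, endothelial nuclei and macrophages. The median thus stayed negative in cardiomyocytes and was positive in the other 3 classes.

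Cytosolic ribosomal protein mRNAs, which like the subunit mRNAs are short and abundant, gave another scale within each class. The members per ribosomal protein UMI were 1.62, 1.69, 1.72 and 2.32 in WT and 0.964, 1.27, 1.07 and 2.11 in Taz-KO cardiomyocytes, where Taz-KO replicate 5301 was above 3 WT mice. In fibroblasts the range was 1.08 to 1.36 in WT and 0.599 to 0.952 in Taz-KO, in endothelial nuclei 0.997 to 1.35 and 0.631 to 0.954, and in macrophages 1.14 to 1.41 and 0.649 to 0.971. These 3 classes did not overlap between genotypes, and neither did the 10% of barcodes with the fewest UMIs, at 1.19 to 1.45 and 0.646 to 0.985. Most of these barcodes were also clustered nuclei outside Taz-KO replicate 5301, so they are not a separate sample. With the ribosomal protein level of the class as covariate, an alternative added after the data were seen, edgeR called 51 of 83 members lower in cardiomyocytes (12.5% of all genes), 43 of 83 in fibroblasts (2.01%), 53 of 83 in endothelial nuclei (3.14%) and 28 of 82 in macrophages (1.53%). Cox7a1 was among them in each class, with -1.67 ± 0.18 (SE) in cardiomyocytes, -1.73 ± 0.19 in fibroblasts, -1.97 ± 0.22 in endothelial nuclei and -1.85 ± 0.24 in macrophages (adjusted p = 0.000131, 0.0011, 0.000616 and 0.00215). The ribosomal protein sum itself was 6813 ± 3294 CPM in WT and 8004 ± 4146 CPM in Taz-KO cardiomyocytes (SD, n = 4 each). In fibroblasts it was 14403 ± 6901 and 17743 ± 9637 CPM (SD, n = 4 each). The paper reports terms of protein translation among genes higher in Taz-KO cardiomyocytes, endothelial cells and fibroblasts, so this scale may itself differ by genotype. What this covariate takes from the members was not tested, and the calls made with it are no separate support for the differences. Across the 8 mice the summed members had an r of 0.924, 0.941, 0.933 and 0.949 with the ribosomal protein sum in cardiomyocytes, fibroblasts, endothelial nuclei and macrophages, and a rho of 0.595, 0.524, 0.548 and 0.714. Without WT replicate 5356 and Taz-KO replicate 5301 r was -0.027, 0.001, 0.01 and 0.444, so the relation rests on those 2 mice, in macrophages in part.

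WT replicate 5356 and Taz-KO replicate 5301 were left out in another alternative added after the data were seen. They were chosen because their summed member level was the lowest, so smaller errors and more calls follow in part from the choice itself and are no support for the differences. Without them, 30 of 83 members were lower in cardiomyocytes (6.65% of all genes), among them Cox7a1 at -1.50 ± 0.22, Ndufv3 at -1.04 ± 0.18, Cox8b at -1.14 ± 0.22, Atp5o at -0.95 ± 0.19 and Uqcrfs1 at -0.69 ± 0.17 (log2, SE, adjusted p = 0.000941, 0.00285, 0.00504, 0.00745 and 0.0213). With all 8 mice the fold changes of these 5 were -1.50, -1.01, -1.12, -0.89 and -0.68. In fibroblasts Cox7a1 was then the one member called, as lower, in endothelial nuclei Cox7a1 and Cox8b were lower and Cox6a1 was higher, and in macrophages none was called. Of all genes 0.371% were called lower and 0.955% higher in fibroblasts, 0.571% and 1.41% in endothelial nuclei, and 0.28% and 0.911% in macrophages. The make-up of the cardiomyocytes also varied between mice. The cluster led by Myl4, Myl7, Sln and Nppa, genes known from atrial muscle, took 38.8% of the cardiomyocytes of Taz-KO replicate 5301 and 27.6% of those of Taz-KO replicate 4685 against 8.71% to 16.3% in the other 6 mice, and its part in the genotype values was not tested.

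The length of a gene went with how steady its count was. The member genes span a median of 7.20 kb, from 0.953 kb for Cox6a2 to 105 kb for Cox7b2, and counts of nuclei include introns. In cardiomyocytes the fold range between the highest and the lowest mouse had a median of 8.36 in the 28 shortest members, 4.21 in the next 27 and 2.54 in the 28 longest. Spearman's rho between span and fold range across the members was -0.698 in cardiomyocytes, -0.536 in fibroblasts, -0.580 in endothelial nuclei and -0.603 in macrophages. Genes are not independent replicates and share libraries, so no p is given. Long members were also less far below the other classes in cardiomyocytes, with rho of 0.634, 0.686 and 0.652 between span and the level ratio to fibroblasts, endothelial nuclei and macrophages. The median log2 ratio was -0.27, -0.65 and -0.60 in the longest members and -0.85, -1.16 and -1.11 in the shortest. Sdhc, Ndufs4 and Cox7b2, the 3 members without overlap between genotypes in cardiomyocytes, all belong to the 28 longest, which start at 9.35 kb. Of all members 38 overlap another annotated gene, 12 of them one on the same strand. For 27 the overlapping gene is in the count tables, 1 of them on the same strand, and Cox6a2 lies within the span of Itgad on the opposite strand.

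**Figure D5:**
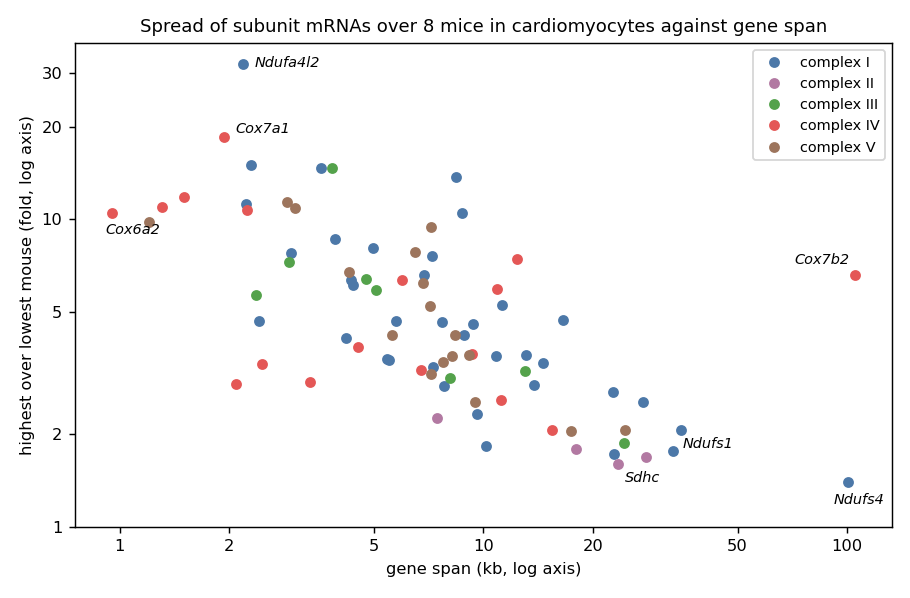
Fold range of CPM between the highest and the lowest of 8 mice in cardiomyocytes (y axis, log) against the genomic span of each member gene in kb (x axis, log), coloured by complex. Short genes near 1 to 5 kb reach the widest ranges, with a median of 8.36 in the 28 shortest, and Ndufs4 is among the lowest at 1.39.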

How the data were processed

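RNA of single nuclei from 8 hearts was sequenced with a 3' droplet method and counted by the authors with Cell Ranger 6.0.1 on mm10, introns included. The deposited values are raw UMI counts per gene and barcode. The study's later correction for free RNA was not repeated, and reads shared by near-identical copies, such as processed pseudogenes of subunit genes, may have been dropped or split.

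Only barcodes holding 800 or more UMIs from 250 or more genes entered. These limits removed barcodes only from Taz-KO replicates 4685 and 5301, where 3475 of 3492 and 3890 of 5571 passed. The smallest barcode held 500 UMIs in these libraries and at least 2165 in the others. Barcodes most like simulated doublets were removed (at most 10% per library), and 151264 nuclei were clustered without mt- genes (resolution 0.9, python-igraph 0.11.9, scikit-learn 1.9.0). The study kept far fewer nuclei, and what this difference does to the levels was not tested. The paper gives an approximate number of nuclei used per heart. It lies below the barcode number of every library except Taz-KO replicates 4685 and 5301, where the others held 21190 to 36308 barcodes. Not every barcode called a nucleus here need therefore hold a nucleus of its own. Clusters were named from marker genes, so the classes may differ from those of the study. Counts were summed per mouse and class without mt- genes. Genotype, slope on log2 mt- share and class by genotype were tested over all genes with edgeR 4.0.16 (TMM, quasi-likelihood, Benjamini-Hochberg). The SE of an edgeR value is its absolute log2 value divided by the square root of its F statistic. Isoform ratios needed 10 UMIs of each gene per mouse and an exact permutation test (scipy 1.17.1). DESeq2 1.42.0, other scalings and filters, clusters at resolution 0.5, subtraction of a share of 0.2 with the profile of the 10% of barcodes with the fewest UMIs and left-out mice were alternatives. Outside Taz-KO replicate 5301 most of these barcodes also entered the clustering, so their profile is not one of free RNA alone. The edgeR genotype and slope fits were tested on simulated counts for cardiomyocytes and fibroblasts, and the interaction fit for these classes together.

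Members and gene lists were chosen with earlier results of these data known. Named genes were the called members, up to 4 of the largest absolute fold changes per complex in cardiomyocytes and 1 in other classes, the isoform pairs, complex II, Taz, and 5 members with the smallest p of the slope and interaction fits, the latter shown where they led. Genes of the other lists were named when called. The values of 1 member are not reported here. The libraries are from separate mice. Depth per class and mouse sets the precision: summed UMIs of nuclear genes ran from 687293 in macrophages of Taz-KO replicate 4685 to 98176451 in cardiomyocytes of Taz-KO replicate 4910.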

Additional observations from a re-analysis of the deposited data

Results flagged for a closer look

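In groups of 4 mice, a mouse far from the other 3 was looked for in 130 groups of values, of which chance alone marks about 1 in 20. Taz-KO replicate 5301 stood far below the other Taz-KO mice in endothelial nuclei for all members together (3548 CPM) and for complexes I to V (1227, 194, 343, 808 and 976 CPM). The same mouse stood apart for the Cox7a1 to Cox7a2 ratio in endothelial nuclei (0.283) and for Ndufv3 in cardiomyocytes (24.6 CPM). WT replicate 5356 stood far below the other WT mice in cardiomyocytes for complex II (438 CPM) and for Sdhc (134 CPM). These 2 libraries were also the lowest in summed member level in every class, and the cause was not tested.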

How the results depend on the processing

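In cardiomyocytes the count of 2 lower members became 0 with the thresholds of the study (adjusted p below 0.001 and absolute log2 fold change above 0.58), 6 with DESeq2, 3 with RLE size factors, 1 without a filter on low counts, 1 with the mt- share of the library as covariate, 4 with clusters at resolution 0.5, 1 without both Taz-KO replicates 4685 and 5301, and 1 to 11 when 1 mouse was left out, with 11 without WT replicate 5356. The share of all genes called lower in the first 7 of these was 0.928%, 5.74%, 6.84%, 4.53%, 6.48%, 6.27% and 3.74%. The study applied its thresholds to another test (MAST), over nuclei and after correction for free RNA. Here they were applied to edgeR on sums per mouse, so the 0 does not show what the study's own test gives. The alternatives added after the data were seen gave 30, 1 and 2 lower members in cardiomyocytes, fibroblasts and endothelial nuclei and 1 higher member in endothelial nuclei without WT replicate 5356 and Taz-KO replicate 5301, and 51, 43, 53 and 28 lower members in cardiomyocytes, fibroblasts, endothelial nuclei and macrophages with the ribosomal protein covariate. Counts of positive slopes became 0 in fibroblasts with the mt- share of the class, and ran from 0 to 78 in fibroblasts, 0 to 55 in endothelial nuclei and 0 to 76 in macrophages with 1 mouse left out. The Cox8b to Cox8a difference in cardiomyocytes was -1.16 in nuclei with at most 5% mt- UMIs (3 WT against 4 Taz-KO mice, exact permutation p = 0.114). With 1 mouse left out, the Cox4i2 to Cox4i1 difference in cardiomyocytes ran from -0.064 to 0.28. The Cox6a2 to Cox6a1 difference ran from -0.85 to 0.008 in cardiomyocytes, -1.25 to -0.34 in fibroblasts, -1.12 to -0.37 in endothelial nuclei and -1.10 to -0.36 in macrophages, and in these last 3 classes the genotypes did not overlap without WT replicate 5356. The Cox7a1 to Cox7a2 ratio of cardiomyocytes minus that of fibroblasts ran from -0.14 to -0.044 and minus that of endothelial nuclei from -0.053 to 0.052, and the Cox8b to Cox8a ratio of cardiomyocytes minus that of fibroblasts from -0.28 to -0.14. The cause of each shift was not tested beyond the smaller number of mice. The 5% limit left too few WT nuclei in fibroblasts, endothelial nuclei and macrophages and was not run there, and in cardiomyocytes WT replicate 4909 had 9 such nuclei and was left out. No called result reversed. With 4 mice per genotype and 221 cardiomyocytes in the smallest library, differences of the size seen for most members were within the error of the comparison.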

Other observations

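The mtDNA-encoded subunits did not keep a fixed proportion to the nuclear-encoded ones. Their UMIs per member UMI in cardiomyocytes were 6.35, 12.7, 6.48 and 10.6 in WT and 2.15, 12.8, 7.09 and 1.22 in Taz-KO, in the order of replicates used above, and the groups overlapped. In fibroblasts they were 10.5, 16.3, 8.98 and 28.5 in WT and 5.98, 19.7, 11.02 and 12.6 in Taz-KO. WT replicate 5356 was thus the highest of all mice in fibroblasts for this proportion and among the lowest for the members themselves.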
